A study of Mus musculus with 6 samples.

Results

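Integrins are the membrane receptors that hold a cell to its extracellular matrix, and 10 genes named for them were followed here in cardiomyocyte (CM) nuclei of the postnatal mouse heart. They were taken by gene symbol from the GENCODE M21 annotation, by a rule that has no threshold on a measured value but was written with earlier results of these data known, and are 10 of the 54532 Ensembl genes in the count table. The α subunit genes *Itga1*, *Itga3*, *Itga5*, *Itga6*, *Itga7*, *Itga9* and *Itgav* and the β subunit genes *Itgb1* and *Itgb5* encode integrins proper. *Itgb1bp2* encodes melusin, a striated muscle protein that is no integrin subunit but binds the cytoplasmic tail of the β1 subunit. All 10 passed the filter on low counts that left 13323 genes for testing. The other 18 integrin subunit genes of the mouse serve below as the comparison.

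The study compared 2 overexpressed variants of YAP, the transcriptional co-activator at the end of the Hippo pathway, to learn what YAP does in CMs without TEAD, the DNA-binding partner through which it reaches most of its target genes. YAP5SA carries serine-to-alanine substitutions at the sites that the LATS kinases phosphorylate, and YAP6SA carries the same substitutions and 1 more that disrupts the contact with TEAD. Wild-type ICR mice received AAV9 subcutaneously at postnatal day 6 (P6), at 1e+11 viral genomes, with GFP, YAP6SA or YAP5SA under the cardiac troponin T (cTnT) promoter, so that the transgene was driven in CMs. Hearts were taken at P9, nuclei were enriched with an antibody against PCM-1, a centriolar satellite protein that coats CM nuclei, and their polyadenylated RNA was sequenced without strand information. Of the 6 libraries, each of 2 batches held 1 from every group, and the sample labels do not say what a batch was. The labels give 2 hearts for each virus but do not state whether a library is 1 heart, so the p-values measure the spread between these libraries. The RNA is nuclear, so the values describe nuclear transcripts and not protein at the cell surface.

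An integrin is a pair of 1 α and 1 β subunit, which bind matrix outside the cell and, through talin, kindlin and the ILK complex, actin inside it. In muscle the β1 subunit is found at costameres and intercalated discs, where sarcomeres are tied to the membrane, and it pairs with most α subunits, of which α3, α6 and α7 bind laminins, α5 binds fibronectin, α1 binds collagens and α9 binds tenascin-C among other ligands. The αv subunit recognises the RGD motif of vitronectin and fibronectin and can pair with β1, β5 and β6, and β5 pairs with αv alone.

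The promoters of the 3 integrin genes that rose in YAP5SA OE CMs are shown because YAP acts through DNA-bound factors. Each line holds the 250 bases before the RefSeq transcription start of GRCm38.p6, written 5′ to 3′ on the strand of the gene. The *Itgb1* stretch is chr8:128685404-128685653 on the plus strand, the *Itga1* stretch is chr13:115101965-115102214 on the minus strand, and the *Itga3* stretch, from the first of its 2 annotated starts, is chr11:95076715-95076964 on the minus strand. Capitals mark GGAATG, the reverse complement of CATTCC, the core of the TEAD motif.
Itgb1: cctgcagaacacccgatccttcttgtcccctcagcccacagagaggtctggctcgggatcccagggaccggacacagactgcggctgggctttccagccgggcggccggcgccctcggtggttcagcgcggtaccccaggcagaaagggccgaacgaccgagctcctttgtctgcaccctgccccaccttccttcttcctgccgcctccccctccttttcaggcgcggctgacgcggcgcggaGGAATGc
Itga1: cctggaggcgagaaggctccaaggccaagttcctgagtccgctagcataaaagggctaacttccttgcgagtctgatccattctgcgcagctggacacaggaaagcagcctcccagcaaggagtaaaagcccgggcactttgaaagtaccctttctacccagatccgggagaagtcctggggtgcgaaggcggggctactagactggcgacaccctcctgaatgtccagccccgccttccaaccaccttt
Itga3: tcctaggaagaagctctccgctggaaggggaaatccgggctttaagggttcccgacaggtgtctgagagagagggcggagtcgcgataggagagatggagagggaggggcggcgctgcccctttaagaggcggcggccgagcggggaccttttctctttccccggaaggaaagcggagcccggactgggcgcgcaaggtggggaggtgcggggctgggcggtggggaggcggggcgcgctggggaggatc

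RefSeq windows from 250 bases before to 50 bases after the start were matched for 7 of the 10 genes, with 8 windows in all, and were searched on both strands. CATTCC was in the *Itgb1* window alone, 7 bases before the start, and 14.7% of the 32851 windows of the genome hold it. TGANTCA, the AP-1 motif, was in the second *Itga3* window and in that of *Itga9*, 12 and 38 bases after the start, against 7.81% of all windows. The start of the second *Itga3* window lies 7603 bases from that of the gene in GENCODE, and the *Itga9* one 105002 bases. Both are therefore internal starts. The CArG box, the site of SRF, was in none of the 8 windows and in 1.63% of all windows. The *Itgb1* window had 67.3% G and C and 27 CpG dinucleotides, the *Itga1* window had 56.7% and 12, and the median window of the genome had 52.7%. A match describes letters in a window and does not show that a factor binds there.

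The libraries held 14552847 to 19615627 counts in genes, and 5.79% to 6.31% of reads were ambiguous between genes and were left out of them. The *Yap1* row ranged from 102.5 to 139 CPM (counts scaled to library size with TMM) over the 6 libraries, and the YAP6SA and YAP5SA groups overlapped GFP, so this row does not check the labels. *Ccn2*, a known TEAD target that also encodes an integrin ligand, had a mean of 71.2 CPM with GFP, 114.9 with YAP6SA and 732 with YAP5SA. The 7 CM markers (*Tnnt2*, *Myh6*, *Actn2*, *Ryr2*, *Ttn*, *Myl2* and *Pln*) summed to 28450 to 62100 CPM. Markers of other cells were present in every library. They summed to 734 to 1542 CPM for 7 fibroblast genes, 488 to 744 for 8 endothelial genes, 187 to 268 for 6 mural genes, 57.7 to 107.6 for 7 macrophage genes and 29.3 to 185.7 for 4 epicardial genes, and no marker was at 0 in all libraries. *Itga1*, *Itga5*, *Itgav* and *Itgb1* are also made by fibroblasts, endothelial cells or mural cells, and in such bulk samples fewer cells of a type and less RNA per cell cannot be told apart.

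**Figure D1:**
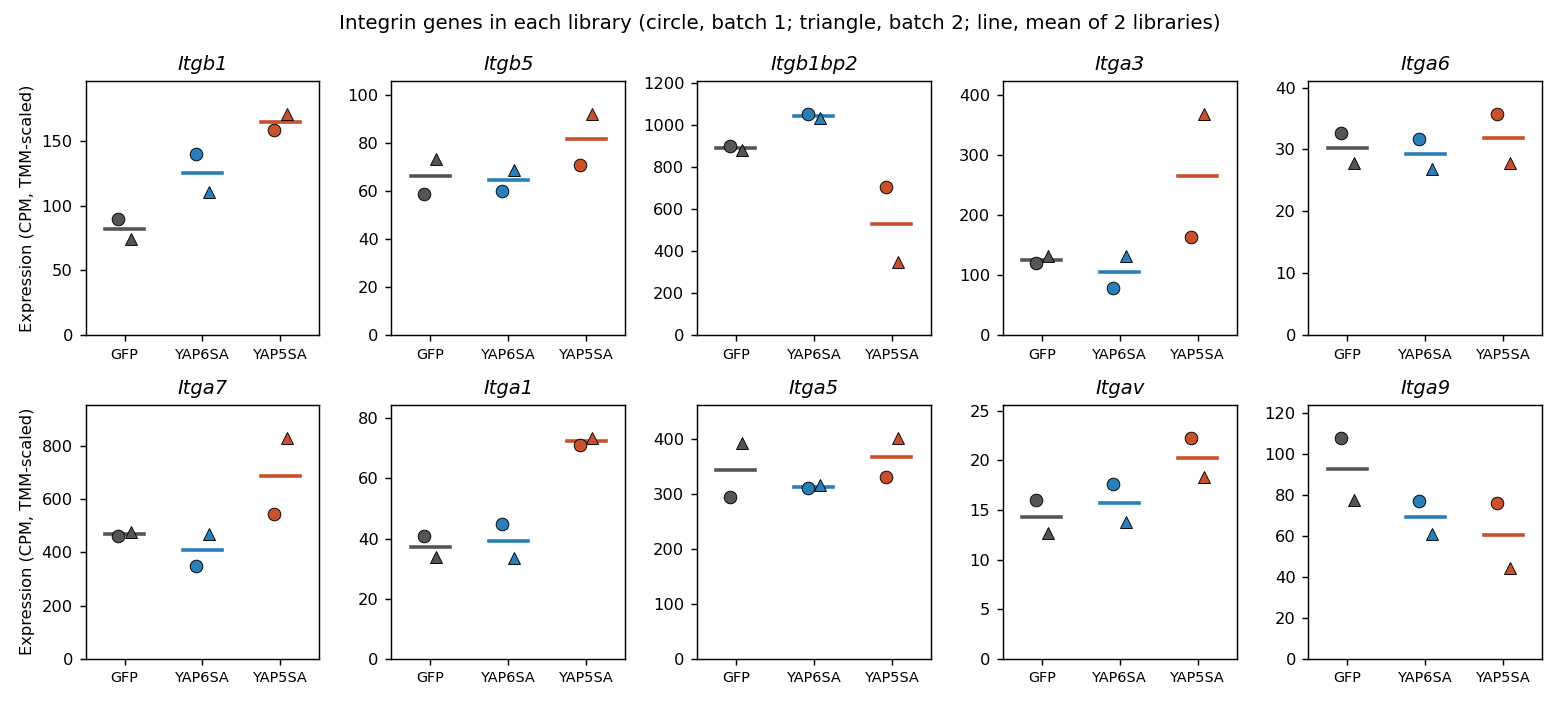
Expression of the 10 integrin genes in each of the 6 libraries, in CPM with TMM scaling; each panel has its own linear axis from 0, circles are batch 1, triangles are batch 2 and the line is the mean of 2 libraries. *Itgb1* steps up from GFP to YAP6SA to YAP5SA with no overlap, *Itga1* is higher in YAP5SA alone, and the libraries of YAP5SA lie far apart for *Itga3*, *Itga7* and *Itgb1bp2*.

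In the GFP libraries, the 10 genes covered a wide range of levels. On the scale of CPM per kilobase of exon (all annotated exons merged), *Itgb1bp2* had 496 ± 7.13 (mean ± SD, n = 2 here and below), which ranked it 29 of 13320 genes with a length. The fibronectin receptor subunit gene *Itga5* had 69.7 ± 13.9 CPM per kb and the muscle laminin receptor gene *Itga7* had 57.9 ± 1.04, and these were the leading integrin subunits. *Itga3*, *Itgb1* and *Itgb5* followed with 21.9 ± 1.5, 20.1 ± 2.72 and 18.6 ± 2.94, and the ranges of *Itga3* and *Itgb1*, and of *Itgb1* and *Itgb5*, overlapped. *Itga9* had 12.1 ± 2.78, *Itga6* 3.35 ± 0.373, *Itga1* 2.01 ± 0.267 and *Itgav* 1.33 ± 0.218. The other neighbours in this order did not overlap. Per length, then, the RNA of the common partner β1 was lower than that of α5 or α7 in all GFP libraries.

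The order was nearly the same in the other groups. In YAP6SA OE CMs *Itgb1*, at 30.7 ± 5.07 CPM per kb, stood above *Itga3*, at 18.4 ± 6.49, without overlap. In YAP5SA OE CMs *Itga7*, at 84.8 ± 25.1, had a higher mean than *Itga5*, at 74.5 ± 10.1, with overlapping ranges, and *Itga1*, at 3.89 ± 0.0861, passed *Itga6*, at 3.52 ± 0.615, also with overlap. The position of *Itga7* depends on the length used, since its longest transcript (4020 bases) is short of its merged exons (8092 bases), and per length of the longest transcript *Itga7* had 116.6 ± 2.10 CPM per kb and *Itga5* 77.9 ± 15.6 in GFP. The change of order of *Itga1* and *Itga6* depends on it too. Per length of the longest transcript in YAP5SA, *Itga1* had 6.60 ± 0.146 and stayed below *Itga6*, at 7.37 ± 1.29. Counts per gene merge splice forms, so the muscle form of β1 and the A and B forms of α6 and α7 are not told apart.

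The view of these genes as the integrins of CMs was checked against the 18 other subunit genes. Of these, *Itgb6*, a partner of αv known from epithelia, had 9.70 ± 2.28 CPM per kb in GFP and stood above *Itga6*, *Itga1* and *Itgav*. *Itgal*, the α subunit of the leukocyte integrin LFA-1, at 2.31 ± 0.0953, and *Itga2b*, the platelet subunit, at 2.13 ± 0.318, had means above *Itga1*, and *Itga10*, a collagen receptor subunit, at 1.62 ± 0.0073, had a mean above *Itgav*. The remaining 14 were below 1.00 on this scale. The orders of *Itgal*, *Itga2b* and *Itga10* depend on the length used. Per length of the longest transcript in GFP, the mean of *Itga1* was 3.40, above *Itgal* at 2.90 and *Itga2b* at 3.39. *Itgav*, at 2.03, was then above *Itga10*, at 1.66, and *Itga8* had 1.02. *Itgb6*, at 14.35, was still above *Itga6*, at 7.02.

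YAP5SA OE CMs had more *Itgb1*, *Itga1* and *Itga3* RNA than GFP and less *Itga9* and *Itgb1bp2* RNA. The collagen receptor subunit α1 and the laminin receptor subunit α3 rose with the shared β1 partner, by 1.95 to 2.03 fold. With edgeR's quasi-likelihood test and Benjamini-Hochberg adjustment, 5 of the 10 genes were called at an adjusted p under 0.05, 3 higher and 2 lower, where 22.0% of all genes tested were called (12.8% higher and 9.18% lower). The median log2 fold change of the 10 was 0.40, and that of all genes was -0.0031. With no batch term, edgeR called 2 of the 10, *Itgb1* and *Itga1*. In YAP6SA OE CMs 0 of 10 were called against GFP, where 0.0450% of all genes were called. DESeq2, limma-voom and the likelihood ratio test also called 0 of 10 there. An edgeR fit of only the 4 GFP and YAP6SA libraries called 1, *Itgb1*, where 2.07% of all genes were called. In the main fit 2 of 10 had an unadjusted p under 0.05 (5.93% of all genes), *Itgb1* with a higher value and *Itga9* with a lower one. The median log2 fold change of the 10 in YAP6SA OE CMs was -0.039, against 0.0018 over all genes. The variant comparisons share the GFP libraries, so their values are given side by side and are not independent.

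Compared directly, YAP5SA against YAP6SA called 4 of the 10 genes, where 14.7% of all genes were called (1199 of 13323 higher, and 757, or 5.68%, lower). *Itga1*, *Itga3* and *Itga7* were higher and *Itgb1bp2* was lower in YAP5SA OE CMs, and the median of the 10 was 0.35 on the log2 scale against -0.0125 over all genes. With no batch term *Itga1* and *Itga3* alone were called. Counted by ranges, YAP5SA lay above GFP without overlap for 5 of the 10 genes (31.2% of all genes did) and below it for 2 (29.7%). YAP6SA lay above GFP for 2 (17.3%) and below for 1 (17.0%), and YAP5SA lay above YAP6SA for 7 (28.6%) and below for 1 (28.9%).

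**Figure D2:**
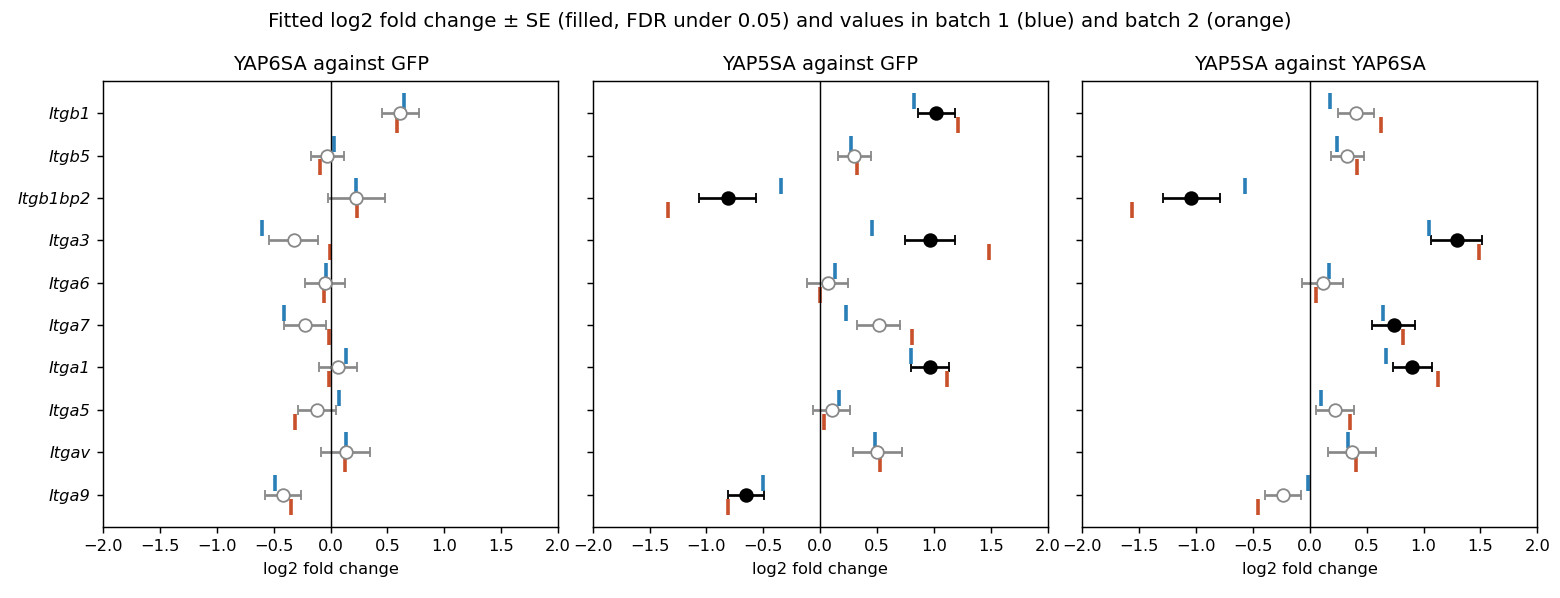
Fitted log2 fold changes of the 10 genes in the 3 comparisons, from edgeR with batch and group terms; circles with bars are the estimate ± standard error, filled where the adjusted p was under 0.05, and ticks are the value within batch 1 and batch 2. For YAP6SA against GFP no circle is filled, and *Itgb1* at 0.61 is the farthest from 0.

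*Itgb1* (ENSMUSG00000025809, chromosome 8 of GRCm38, 128685654 to 128733200, plus strand) encodes β1, which can pair with each of the 7 α subunits followed here. Its expression in batch 1 and batch 2 was 89.7 and 74.0 CPM in GFP, 140.1 and 110.8 in YAP6SA, and 158.6 and 170.9 in YAP5SA. Both YAP6SA libraries were above both GFP libraries, and both YAP5SA libraries were above all others. The log2 fold change of YAP5SA against GFP was 1.02 (SE 0.16, 2.03 fold, adjusted p = 0.00266, edgeR), with 0.82 in batch 1 and 1.21 in batch 2. This call held under all 7 alternatives of scaling, filter, tool, batch term and samples, and with each library left out.

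For YAP6SA against GFP the same gene had a log2 fold change of 0.61 (SE 0.16, 1.53 fold), with 0.64 and 0.58 within the batches, an unadjusted p of 0.00333 and an edgeR adjusted p of 0.467, which did not pass. A fit of only the 4 GFP and YAP6SA libraries gave 0.62 with an edgeR adjusted p of 0.0057, and in that fit 2.07% of all genes were called against 0.0450% in the model of all 6 libraries. Leaving out a YAP5SA library likewise gave edgeR adjusted p-values of 0.0106 and 0.0107, and leaving out a GFP or YAP6SA library gave 0.48 to 0.74 on the log2 scale with no call. The call thus changed with the libraries in the fit, and the cause was not tested. Between the variants, *Itgb1* was 0.41 higher in YAP5SA on the log2 scale (SE 0.16, edgeR adjusted p = 0.117), which did not pass, although the ranges did not overlap.

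*Itgb5* (ENSMUSG00000022817, chromosome 16, 33829665 to 33949338, plus strand), the vitronectin receptor β subunit, had 58.7 and 73.5 CPM in GFP, 60.0 and 68.8 in YAP6SA, and 70.9 and 91.9 in YAP5SA. The YAP6SA values lay within the GFP range, and the lower YAP5SA value did too. Its log2 fold changes against GFP were -0.030 (SE 0.15) in YAP6SA and 0.30 in YAP5SA (SE 0.15, edgeR adjusted p = 0.168), and it was not called in any comparison. The ratio of *Itgb1* to *Itgb5* per length was 1.10 ± 0.321 in GFP, 1.72 ± 0.446 in YAP6SA and 1.78 ± 0.232 in YAP5SA.

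*Itgb1bp2* (ENSMUSG00000031312, chromosome X, 101449088 to 101453541, plus strand), the melusin gene, was lower in YAP5SA OE CMs, where the gene of its β1 partner was higher. It had 900.9 and 882.7 CPM in GFP, 1052 and 1034 in YAP6SA, and 707 and 349 in YAP5SA. Both YAP6SA values were above GFP and both YAP5SA values below it, and the YAP5SA libraries differed from each other by more than the distance between YAP5SA batch 1 and GFP. Against GFP the log2 fold change was 0.23 in YAP6SA (SE 0.25, edgeR adjusted p = 0.929) and -0.82 in YAP5SA (SE 0.25, 0.568 fold, edgeR adjusted p = 0.0440). Within the batches the latter was -0.35 and -1.34.

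The call of *Itgb1bp2* against GFP rested on YAP5SA batch 2 and on the other groups in the fit. Without YAP5SA replicate 2 it was -0.33 (edgeR adjusted p = 0.201), without GFP replicate 2 it was -0.58 (adjusted p = 0.341 by edgeR), and in the fit of 4 libraries it was -0.84 (adjusted p = 0.0511 by edgeR). Against YAP6SA it was -1.04 (SE 0.25, edgeR adjusted p = 0.0235), with -0.57 and -1.57 within the batches, and that call was lost only without YAP6SA replicate 2 (-0.80, adjusted p = 0.308 by edgeR) among the 6 libraries left out. The ratio of *Itgb1bp2* to *Itgb1* per length was 22.8 and 27.1 in the GFP libraries, 17.0 and 21.2 in YAP6SA, and 10.1 and 4.63 in YAP5SA. The 3 groups did not overlap in this ratio, with means of 24.9 ± 3.03, 19.1 ± 2.93 and 7.37 ± 3.88. The ratio restates the values of the 2 genes and is no separate result. In YAP6SA it was lower although *Itgb1bp2* itself was above GFP, since *Itgb1* was higher there. The CM markers *Ryr2* and *Pln* also fell in YAP5SA against GFP (log2 fold change -0.81 and -1.04, adjusted p = 0.0455 and 0.00784 by edgeR), and all 7 CM markers had a negative value with a median of -0.76, and the part of this in the *Itgb1bp2* value was not tested.

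The laminin receptor subunit genes differed among themselves. *Itga7* (ENSMUSG00000025348, chromosome 10, 128933818 to 128958282, plus strand), which encodes the main laminin receptor subunit of striated muscle, had 463 and 475 CPM in GFP, 348 and 470.0 in YAP6SA, and 543 and 830.4 in YAP5SA. YAP5SA was above both other groups in each library, and YAP6SA batch 1 was the lowest of the 6. Its log2 fold change was 0.74 for YAP5SA against YAP6SA (SE 0.19, edgeR adjusted p = 0.0277), with 0.64 and 0.82 within the batches. Against GFP it was 0.51 in YAP5SA (SE 0.19, edgeR adjusted p = 0.0748) and -0.22 in YAP6SA (SE 0.19), neither of which passed. The YAP5SA value against GFP passed with no filter, with DESeq2 and with the likelihood ratio test, at 0.51 to 0.52 on the log2 scale. The call against YAP6SA was lost without YAP6SA replicate 1 (0.68), YAP6SA replicate 2 (0.79) or YAP5SA replicate 2 (0.55).

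*Itga3* (ENSMUSG00000001507, chromosome 11, 95044474 to 95076801, minus strand) had 119 and 131 CPM in GFP, 78.8 and 131 in YAP6SA, and 163 and 367 in YAP5SA. The YAP5SA libraries were the highest and lay far apart, and the YAP6SA libraries ran from below GFP to the GFP level. YAP5SA exceeded GFP by 0.96 on the log2 scale (SE 0.22, edgeR adjusted p = 0.0138), with 0.45 in batch 1 and 1.48 in batch 2. Without YAP5SA replicate 2 the value was 0.61 (edgeR adjusted p = 0.0303), and without GFP replicate 2 it was 0.56 (adjusted p = 0.236 by edgeR). YAP5SA exceeded YAP6SA by 1.29 (SE 0.22, 2.44 fold, edgeR adjusted p = 0.00512), the widest difference of the 10 genes over the 3 comparisons, and that call held under all 7 alternatives and with each library left out, at 0.91 to 1.64.

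*Itga6* (ENSMUSG00000027111, chromosome 2, 71745616 to 71858416, plus strand), the third laminin subunit gene, had 32.6 and 27.9 CPM in GFP, 31.7 and 26.9 in YAP6SA, and 35.7 and 27.9 in YAP5SA. The 3 groups overlapped, and in each the batch 2 library was the lower one. Its log2 fold changes were -0.047 for YAP6SA and 0.065 for YAP5SA against GFP (SE 0.18 for each), with no call.

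*Itga1* (ENSMUSG00000042284, chromosome 13, 114953096 to 115101964, minus strand), the collagen receptor subunit gene, had 40.9 and 33.8 CPM in GFP, 44.8 and 33.6 in YAP6SA, and 71.2 and 73.5 in YAP5SA. The GFP and YAP6SA ranges overlapped, and both YAP5SA libraries were well above them and close to each other. Relative to GFP its log2 fold change was 0.97 in YAP5SA (SE 0.17, edgeR adjusted p = 0.00462) and 0.065 in YAP6SA (SE 0.17, edgeR adjusted p = 0.969). YAP5SA exceeded YAP6SA by 0.90 (SE 0.17, edgeR adjusted p = 0.00843), with 0.67 and 1.13 within the batches. Both calls held under all 7 alternatives, and they were lost only without GFP replicate 2 (0.92, adjusted p = 0.0609 by edgeR) and without YAP6SA replicate 2 (0.75, adjusted p = 0.16 by edgeR) respectively. *Gm49395*, an annotated gene on the same strand, covers 3.68% of the *Itga1* exon length and had 38 counts in all libraries.

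The fibronectin and RGD receptor genes were not called in any comparison. *Itga5* (ENSMUSG00000000555, chromosome 15, 103344286 to 103366763, minus strand) had 295 and 393 CPM in GFP, 311 and 316 in YAP6SA, and 332 and 403 in YAP5SA. Its log2 fold changes against GFP were -0.12 and 0.10 in YAP6SA and YAP5SA (SE 0.16 for each), and by level per length it ranked 501, 569 and 415 of 13320 genes in GFP, YAP6SA and YAP5SA. *Itgav* (ENSMUSG00000027087, chromosome 2, 83724397 to 83806916, plus strand), the lowest of the 10 with 194 to 346 counts a library, had 16.0 and 12.7 CPM in GFP, 17.6 and 13.8 in YAP6SA, and 22.3 and 18.3 in YAP5SA. YAP5SA lay above the other groups without overlap, and its log2 fold change against GFP was 0.50 (SE 0.21, edgeR adjusted p = 0.118), with 0.48 and 0.53 within the batches.

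*Itga9* (ENSMUSG00000039115, chromosome 9, 118606690 to 118901003, plus strand), the α subunit gene of a tenascin-C and VCAM-1 receptor, was the only subunit gene of the 9 that was called lower. It had 108.0 and 77.8 CPM in GFP, 77.2 and 61.0 in YAP6SA, and 76.2 and 44.4 in YAP5SA. Both variants lay below the GFP range and overlapped each other. Relative to GFP its log2 fold change was -0.65 in YAP5SA (SE 0.16, 0.637 fold, edgeR adjusted p = 0.0181) and -0.42 in YAP6SA (SE 0.16, unadjusted p = 0.0258, edgeR adjusted p = 0.757). Between the variants it was -0.23 (SE 0.16, edgeR adjusted p = 0.357). The YAP5SA call was lost without either GFP library (-0.68 and -0.61), without YAP5SA replicate 2 (-0.46) and in the fit with no batch term (-0.63, adjusted p = 0.14 by edgeR).

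For 8 of the 10 genes the batches differed in the same direction in every group. The share of all genes that did so was not counted. Some of the differences were near 0, as for *Itga7* in GFP (0.037 on the log2 scale) and *Itga5* in YAP6SA (0.025). *Itga6*, *Itga9*, *Itgav* and *Itgb1bp2* were lower in batch 2 than in batch 1 in all 3 groups, and *Itga3*, *Itga5*, *Itga7* and *Itgb5* were higher in all 3. For *Itga3* the log2 ratio of batch 2 to batch 1 was 0.14 in GFP, 0.74 in YAP6SA and 1.17 in YAP5SA, and for *Itgb1bp2* it was -0.03, -0.03 and -1.02. *Itgb1* and *Itga1* were lower in batch 2 in GFP and YAP6SA and slightly higher in YAP5SA. Batch is a term of the model, and both batches held all 3 groups.

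**Figure D3:**
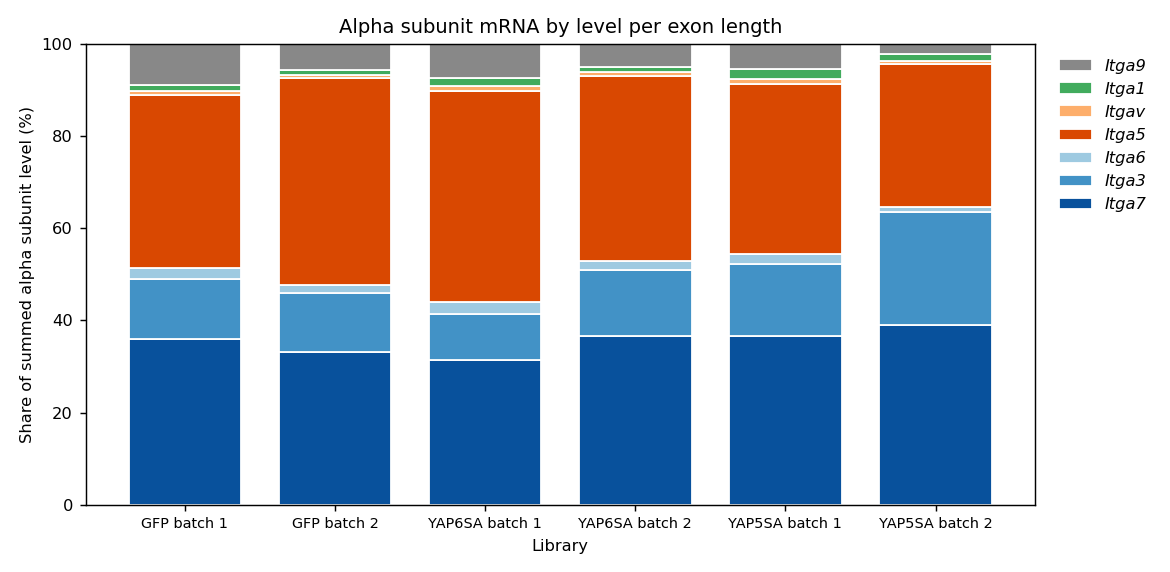
Share of each of the 7 α subunit genes in their summed level per exon length (CPM per kb), in percent, as stacked bars for each library. *Itga5* and *Itga7* make up most of every bar, and the *Itga3* band is widest in YAP5SA batch 2, at 24.4%.

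Seen as a mixture, the α subunit RNA of all 6 libraries was mainly that of the fibronectin subunit and the muscle laminin subunit. Per merged exon length, *Itga5* made up 41.2 ± 5.14% of the 7 α subunits in GFP, 43.1 ± 3.95% in YAP6SA and 33.9 ± 4.11% in YAP5SA, and *Itga7* made up 34.5 ± 2.01%, 33.9 ± 3.68% and 37.9 ± 1.62%. *Itga3* had 13.1% and 13.0% in the GFP libraries, 10.0% and 14.4% in YAP6SA, and 15.6% and 24.4% in YAP5SA, so that YAP5SA was above the other groups without overlap. The laminin subunits *Itga3*, *Itga6* and *Itga7* together made up 51.3% and 47.8% in GFP, 43.9% and 52.8% in YAP6SA, and 54.5% and 64.6% in YAP5SA. *Itga9* had 8.82% and 5.70% in the GFP libraries and 5.42% and 2.19% in YAP5SA, where both values were below GFP. The summed α level was 168 ± 12.9 CPM per kb in GFP, 148 ± 15.4 in YAP6SA and 223 ± 56.8 in YAP5SA. With 2 libraries a group, no exact test of a share could reach 0.05.

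The genes whose levels ran most like the leading members over the 6 libraries were listed among 8151 genes with a mean log2 CPM over 4. For *Itgb1* they were *Smad7*, an inhibitor of TGF-β signalling (Pearson r = 0.996), *Akr1a1*, an aldehyde reductase (r = 0.996), and *Alyref*, an mRNA export factor (r = 0.994). *Smad7* had 19.9 and 15.0 CPM in GFP, 32.4 and 25.3 in YAP6SA, and 38.6 and 45.9 in YAP5SA, the same stepped order. For *Itga1* they were the mitotic kinesin genes *Kif23* (r = 0.996) and *Kifc1* (r = 0.994) and the phosphate transporter gene *Slc20a1* (r = 0.995). *Kif23* had 16.5 and 10.6 CPM in GFP, 18.3 and 10.9 in YAP6SA, and 46.7 and 58.8 in YAP5SA. These correlations describe 6 libraries that share groups and batches, and they were picked as the highest of many.

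Of the other integrin subunit genes, 16 of 18 were tested. In YAP5SA against GFP 2 of the 16 were called higher and 0 lower, a share higher that is near the 12.8% of all genes, with a median log2 fold change of 0.43, and in YAP6SA against GFP edgeR called 0, and 0 at an unadjusted p under 0.05, with a median of 0.022. The 2 were *Itgam* and *Itgb2*, which encode the subunits of the macrophage integrin Mac-1. *Itgb2* had 17 and 45 counts in GFP, 52 and 35 in YAP6SA, and 64 and 140 in YAP5SA (log2 fold change 1.73, SE 0.52, edgeR adjusted p = 0.0385). *Itgam* had 8 and 20 counts in GFP, 17 and 12 in YAP6SA, and 33 and 67 in YAP5SA (1.84, SE 0.58, edgeR adjusted p = 0.0462), and 68.7% of its exon length is shared with the annotated gene *Gm49368* on the same strand. Only its YAP5SA level took *Itgam* past the filter on low counts. Its call therefore lends no support to the count of 2 or to the comparison with 12.8%. *Itga2*, *Itgb3* and *Itgb7*, which were not called, passed the filter in the same way and are part of the median of 0.43. Of 6 macrophage markers tested, *C1qa*, a complement gene, rose in the same comparison (0.96, edgeR adjusted p = 0.0228), and the other 5 did not pass. The summed macrophage markers were 57.7 and 79.9 CPM in GFP and 72.7 and 107.6 in YAP5SA, and their part in the *Itgam* and *Itgb2* values was not tested. *Itgb6* had 57.5 and 80.5 CPM in GFP, 92.1 and 70.3 in YAP6SA and 112 and 87.6 in YAP5SA, and was not called.

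**Figure D4:**
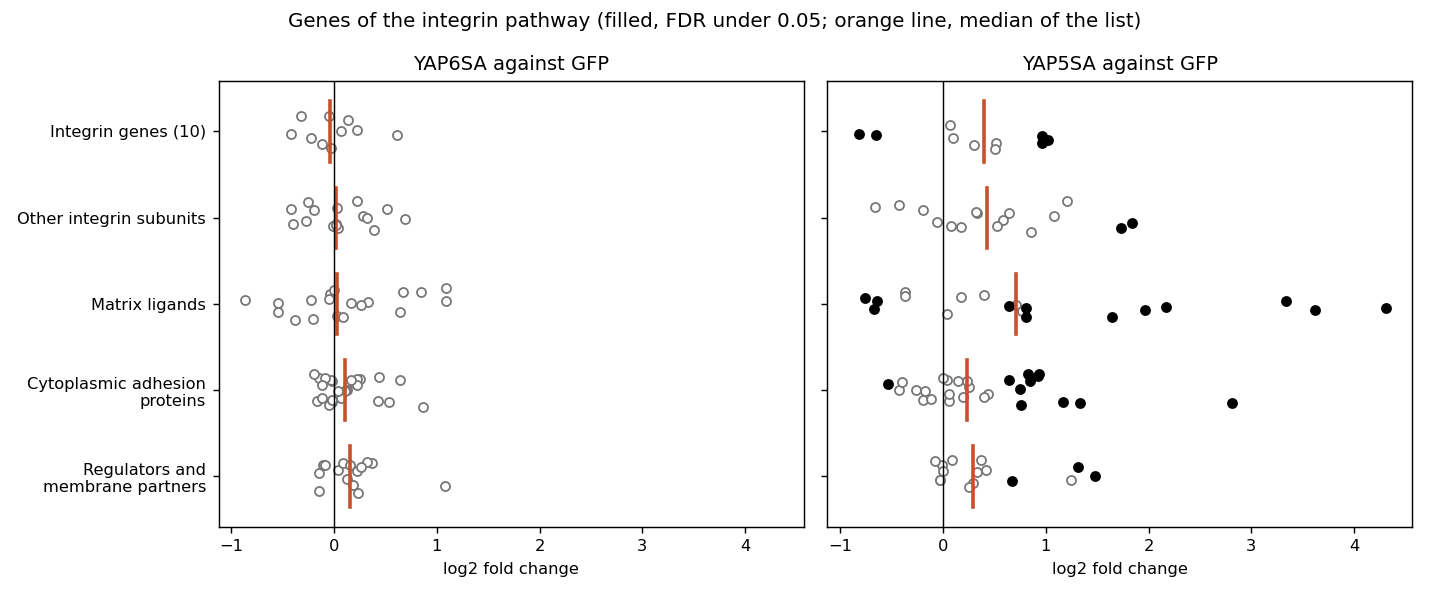
Log2 fold changes of the tested genes in the 10 integrin genes, the other subunits and 3 lists of integrin pathway genes, for both variants against GFP; each circle is a gene, filled where the adjusted p was under 0.05, and the line is the list's median. No circle is filled for YAP6SA, and for YAP5SA the matrix ligands reach from -0.76 to 4.31. The value of 4.31 is that of *Spp1*, which had a mean of 0.11 CPM in GFP and passed the filter through YAP5SA alone.

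Genes for matrix ligands both rose and fell in YAP5SA OE CMs. Of 19 ligand genes tested out of 20 listed, 9 rose and 3 fell against GFP, where 12.8% of all genes rose and 9.18% fell, with a median log2 fold change of 0.71. Among the 9, *Spp1* and *Npnt* passed the filter on low counts through YAP5SA alone. Their means were 0.11 and 0.72 CPM in GFP and 2.76 and 3.14 in YAP5SA, so their calls lend no support to the count. *Ccn2* (3.33, SE 0.43, edgeR adjusted p = 0.000998) and *Ccn1* (1.96, SE 0.36, edgeR adjusted p = 0.00528), matricellular proteins and well-known TEAD targets, rose with *Tnc*, the tenascin-C gene (1.64, SE 0.31, edgeR adjusted p = 0.00561), and *Thbs1*, the thrombospondin-1 gene (3.62, SE 0.81, edgeR adjusted p = 0.0124). Within the batches *Thbs1* had 1.44 and 5.75. Basement membrane genes went both ways. The genes that fell encode laminin chains, *Lama2* (-0.76, SE 0.21, edgeR adjusted p = 0.0275), *Lama4* (-0.64, SE 0.18, edgeR adjusted p = 0.0332) and *Lamb2* (-0.67, SE 0.21, edgeR adjusted p = 0.0496). The laminin chain gene *Lamc1* (0.64, SE 0.16, edgeR adjusted p = 0.0196) and the collagen IV genes *Col4a1* (0.81, SE 0.22, edgeR adjusted p = 0.0261) and *Col4a2* (0.81, SE 0.20, edgeR adjusted p = 0.0180) rose, and these 3 were named after their values were seen. In YAP6SA against GFP edgeR called 0 of the 19, and 2 had an unadjusted p under 0.05, where 5.93% of all genes did. These 2 were *Nid1* with a higher value (0.85) and *Lama3* with a lower one (-0.86), and they were named after their values were seen. The median was 0.030.

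Inside the cell, 27 of 29 listed adhesion genes were tested, and 10 rose and 1 fell in YAP5SA against GFP, where 12.8% of all genes rose and 9.18% fell, with a median of 0.23. The smallest adjusted p-values were those of *Tns3*, the tensin-3 gene (2.81, SE 0.19), *Parva*, α-parvin of the ILK complex (0.93, SE 0.18, edgeR adjusted p = 0.00721), and the talin genes *Tln1* (0.83, SE 0.16, edgeR adjusted p = 0.00723) and *Tln2* (0.84, SE 0.18, edgeR adjusted p = 0.00918). Talins bind the β tail and switch the integrin on. *Tns3* rose from a mean of 32.2 CPM in GFP to 234 in YAP5SA and was at 37.7 in YAP6SA. *Parvb*, the β-parvin gene, was the one that fell (-0.54, SE 0.17, edgeR adjusted p = 0.0453). *Fermt1*, the epithelial kindlin gene, was at 0 counts, and *Ilk* had 28 counts in all 6 libraries. The exons of *Ilk* overlap *Taf10* on the opposite strand over 76.8% of their length, and reads ambiguous between genes were not counted, so its level cannot be read from this table.

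In YAP6SA against GFP edgeR called 0 of the 27 adhesion genes and the median was 0.11. At an unadjusted p under 0.05 there were 4 with a higher value and 0 with a lower one, where 3.86% of all genes had such a higher value. They were *Zyx* (0.87, SE 0.16, edgeR adjusted p = 0.224), *Lims2* (0.64, SE 0.17), *Vasp* (0.53, SE 0.14) and *Tgfb1i1* (0.43, SE 0.15), which encode zyxin, PINCH-2, VASP and Hic-5, and they were named after their values were seen. In YAP5SA the same genes had 0.75, 0.76, 0.064 and 0.65.

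In YAP6SA against GFP edgeR called 0 of 15 regulators and membrane partners of integrins, with a median of 0.15. There 1 of them (*Cd9*, 1.08) was higher at an unadjusted p under 0.05, where 3.86% of all genes were. In YAP5SA against GFP 3 of the 15 rose and 0 fell, with a median of 0.29, where 12.8% of all genes rose and 9.18% fell. The 3 were the tetraspanin genes *Cd81* (0.67, SE 0.17, edgeR adjusted p = 0.0191) and *Cd9* (1.31, SE 0.40, edgeR adjusted p = 0.0420) and *Apbb1ip*, which encodes the Rap1 effector RIAM that brings talin to the membrane (1.48, SE 0.45, edgeR adjusted p = 0.0426). *Apbb1ip* was low, with a mean of 1.53 CPM in GFP and 4.29 in YAP5SA. It passed the filter on low counts through YAP5SA alone, so its call lends no support to the count.

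Markers of other cells were read beside these results. In YAP5SA against GFP edgeR called 0 of 8 endothelial markers and 0 of 7 fibroblast markers, with medians of 0.081 and 0.26. At an unadjusted p under 0.05 there were 0 and 3, the latter being 2 higher and 1 lower. Over all 13323 genes, 2591 were higher and 2261 lower at that threshold. Of 6 mural markers *Myh11* rose (1.00, edgeR adjusted p = 0.0274) with a list median of -0.084, and of 4 epicardial markers *Wt1* (3.17, edgeR adjusted p = 0.000232) and *Krt19* (2.21, edgeR adjusted p = 0.0291) rose. In YAP6SA against GFP edgeR called 0 markers in any list. There the fibroblast median was 0.37 with 3 of 7 genes higher at an unadjusted p under 0.05, where 3.86% of all genes were. Of the 6 mural markers, 1 was higher at that threshold. All 7 fibroblast and all 6 mural markers had a positive value, as did 6697 of all 13323 genes. Summed by library, the fibroblast markers were 1165 and 734 CPM in GFP, 1542 and 857 in YAP6SA, and 1289 and 771 in YAP5SA, and the endothelial markers were 633 and 488, 744 and 498, and 651 and 495. In each batch the fibroblast sum was above GFP in both variants, as *Itgb1* was. The sum was highest in YAP6SA and *Itgb1* was highest in YAP5SA. The part of fibroblasts and endothelial cells in the *Itgb1* and *Itga1* values was not tested. The epicardial sum was 37.2 and 29.3 CPM in GFP, 53.2 and 29.3 in YAP6SA, and 122 and 186 in YAP5SA. It was higher in both YAP5SA libraries, as *Itgb1*, *Itga1* and *Itga3* were, and its part in them was not tested. Most of its rise was that of *Wt1*, with means of 13.7 CPM in GFP and 124 in YAP5SA. *Krt19* had means of 1.97 and 9.12 CPM. *Msln* (12.5 and 12.7) and *Upk3b* (5.13 and 8.44) were not called, although *Upk3b* was higher in both batches (0.70 and 0.74 on the log2 scale). Whether the number of epicardial cells differed was not tested.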

How the data were processed

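RNA-seq counts of PCM-1-enriched nuclei came from 6 libraries, 2 for each of GFP, YAP6SA and YAP5SA. Per the methods, alignment was done by the authors with STAR on mm10 (Ensembl GRCm38.94), and the deposited values are whole-number read counts for each gene, neither scaled nor filtered. The STAR version and the counting setting are not given in the sources used here. Symbols, coordinates and exon lengths came from GENCODE M21, matched by Ensembl ID.

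Genes with a median log2 CPM over 1 in at least 1 group were kept (13323). The model was run with edgeR 4.0.16 under R 4.3.3 (TMM, quasi-likelihood, terms for batch and group, all 6 libraries, Benjamini-Hochberg over all genes, threshold 0.05). The standard error was the size of the log2 fold change divided by the square root of F. The batch term pairs the libraries. The pairing comes from the labels, since replicate 1 and replicate 2 are named there as batch 1 and batch 2, and same-batch libraries moved together around their group means (r = 0.394, 0.107 and 0.181 across 13323 genes for the 3 pairs of groups). Replicates differed by more than sampling noise. The alternatives were RLE scaling, no filter, DESeq2 1.42.0, the likelihood ratio test, limma-voom (limma 3.58.1), no batch term, fits of 4 libraries, and each library left out, in which the lone library of a group is assumed to vary like the others.

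The 10 integrin genes and the lists were chosen with earlier results of these data known. All 10 were named. Of other integrin subunits, those called or highest per length were named, at most 4 each, and of each further list at most 4 in each direction with the smallest adjusted p in YAP5SA against GFP, with any called in YAP6SA against GFP. For the 2 integrin genes with the smallest adjusted p, the 3 genes most alike were named. Promoter windows came from RefSeq (GRCm38.p6).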

Additional observations from a re-analysis of the deposited data

How the results depend on the processing

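With no replicate block (no batch term to keep the pairing of the libraries), YAP5SA against GFP called 2 of the 10 integrin genes (*Itga1* and *Itgb1*) in place of 5, and YAP5SA against YAP6SA called 2 (*Itga1* and *Itga3*) in place of 4. In YAP6SA against GFP the fit of the 4 libraries compared called 1 (*Itgb1*) in place of 0. With each library left out in turn, these counts ran from 0 to 1 for YAP6SA against GFP, from 1 (without GFP replicate 2) to 6 (without YAP5SA replicate 1) for YAP5SA against GFP, with 3 without YAP5SA replicate 2, and from 1 (without YAP6SA replicate 2) to 5 (without YAP5SA replicate 1) for YAP5SA against YAP6SA. The cause was not tested.

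With a library left out, some signs turned, all of them in values that were not called. For YAP6SA against GFP the log2 fold change without 1 library ran from -0.71 to 0.11 for *Itga3*, -0.46 to 0.028 for *Itga7*, -0.28 to 0.039 for *Itga5* (0.011 without GFP replicate 2), -0.094 to 0.21 for *Itga1*, -0.044 to 0.49 for *Itgb1bp2* (-0.00089 without GFP replicate 1) and -0.11 to 0.044 for *Itgb5*, and for YAP5SA against GFP from -0.015 to 0.23 for *Itga5*. Of the fold changes under the other 7 alternatives, 200 kept their direction and their side of the threshold, 6 lost and 4 gained a call, and 0 turned. With the longest transcript as length, *Itga5* had 31.5%, 33.0% and 25.3% of the α subunits in GFP, YAP6SA and YAP5SA, and *Itga7* had 47.5%, 46.7% and 50.9%.

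Over all genes, YAP6SA against GFP called 6 in the fit reported, 145 with no filter, 54 with DESeq2, 82 with the likelihood ratio test, 0 with no batch term and 276 with 4 libraries, and YAP5SA against YAP6SA called 1956 and, with no batch term, 1152. With a library left out they ran from 6 to 213 (without YAP5SA replicate 2) for YAP6SA against GFP, from 738 (without GFP replicate 2) to 4863 (without YAP5SA replicate 1), against 2931, for YAP5SA against GFP, and from 396 (without YAP6SA replicate 2) to 4160 (without YAP5SA replicate 1) for YAP5SA against YAP6SA. No scaling moved the median of all genes by over 0.1. The values of *Itgb5* and *Itgav* against GFP did not pass, which does not show that they were equal.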
